A study of Mus musculus with 13 samples.

Results

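The 88 genes described here encode the nuclear part of the mitochondrial respiratory chain and ATP synthase. They were taken by name from the 17280 genes of the filtered count table, as all genes whose symbols begin with Nduf followed by a, b, c, s or v, with Uqcr, with Cox4 to Cox8 or with Atp5, plus Sdha, Sdhb, Sdhc, Sdhd and Cyc1, without pseudogenes. The rule uses gene names alone. By their known place in the chain, 36 are subunits of complex I, 4 of complex II, 9 of complex III, 14 of complex IV (Ndufa4 included) and 15 of complex V. The other 10 carry a matching name but are not subunits: 7 assembly factors of complex I (Ndufaf1 to Ndufaf7), Atp5s, Atp5sl and Cox7a2l.

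The cells were single microglia (CD45lo, CD11b+) sorted from the hypothalamus of male wild-type C57BL/6J mice kept on standard chow (control) or on a high-fat diet (HFD, 60% fat) for 1 day, 3 days, 1 week, 4 weeks, 9 weeks or 16 weeks. CEL-Seq2, a plate-based method that tags every transcript at its 3′ end with a random identifier, was run on 13 plates of 192 wells. The labels describe the series as chow against HFD of 3 days, whereas the table of wells, which gave each well its diet, replicate identifier and plate, lists all 6 lengths. Ages were not stated, and the names of the wells carry a number of weeks, from 4 to 24, that was the same for HFD and control on most plates but not on plates 1 and 13. Wells with at least 1500 transcripts were kept: 722 control wells and, in order of HFD length, 161, 121, 172, 128, 82 and 231 wells, 1617 of 2496 in all.

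Wells of the same diet, replicate identifier and plate were added to 1 sum, which gave 28 control sums of 19 replicates and 6, 6, 7, 5, 6 and 10 HFD sums of 6, 4, 5, 3, 2 and 5 replicates. The control sums carry 15 different identifiers, and an identifier that recurs on another set of plates was counted as another replicate there, since 8 identifiers stand for control on some plates and for HFD on others. A sum held 7 to 76 cells and 22774 to 219199 transcripts (median 65243), so a count of 0 in a sum allowed a level of up to 0.137 to 1.32 transcripts per 10000, by counting error only. The 16 microglial markers, among them Cx3cr1, P2ry12 and Tmem119, were all in the table and held 3.78% to 6.23% of the transcripts of a sum. In 7 of the 1617 wells these markers held less than 1% of transcripts, and values without those wells are given for the shares and tests that they move most.

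The respiratory chain passes electrons from NADH (complex I) and succinate (complex II) through complexes III and IV to oxygen and pumps protons across the inner mitochondrial membrane, and ATP synthase, also called complex V, uses that gradient to make ATP. Most subunits are encoded in the nucleus and imported, while a small core is encoded by the mitochondrial genome itself. In microglia and other macrophages the balance between respiration and glycolysis is known to differ between functional states.

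The 88 genes were expressed at a low level. Over all kept wells, control and HFD, they held 28058 transcripts, or 0.542% of the total. A single cell held a median of 15 such transcripts from 13 different members, with a range of 1 to 73 members detected. Complex I, with the most genes, held 0.179% ± 0.0346 of transcripts (SD, n = 28 control sums), complex V 0.134% ± 0.0365, complex IV 0.105% ± 0.0325, complex III 0.0575% ± 0.0149 and complex II 0.0285% ± 0.00785. The 10 members that are not subunits held 0.0319% ± 0.00944. Without the wells of few markers the SDs were smaller, with complex I at 0.174% ± 0.0251, complex V at 0.129% ± 0.0189, complex IV at 0.100% ± 0.0180, complex III at 0.0554% ± 0.00975 and complex II at 0.0280% ± 0.00704. Per gene the order was different, since the median member of complex I stood at 0.474 transcripts per 10000 and those of complexes II, III, IV and V at 0.625, 0.639, 0.692 and 0.762. CEL-Seq2 yields 1 tag per transcript, so these levels count transcripts and were not divided by gene length.

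The top members were the catalytic core of ATP synthase. Atp5b, which encodes the catalytic beta subunit, stood at 2.26 ± 0.959 transcripts per 10000 in control sums and was detected in 43.6% of control cells, and Atp5a1, the alpha subunit, at 1.93 ± 0.774 and in 40.3%. Without the wells of few markers Atp5b was at 2.18 ± 0.786 and Atp5a1 at 1.88 ± 0.660. Even Atp5b was only the gene of rank 676 of the table by level. Atp5h, a subunit of the peripheral stalk, followed at 1.31 ± 0.586. In complex IV the leading genes were Cox6a1 (1.63 ± 0.654), Cox4i1 (1.55 ± 0.65) and Cox7c (1.30 ± 0.675). Neighbours in this order differed by less than the SD between sums.

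Complex I was led by Ndufc2, a subunit of its membrane arm, at 1.15 ± 0.508 transcripts per 10000, and the core subunit gene Ndufs1 stood at 0.804 ± 0.420. In complex III the order was Uqcrc2, a core protein, at 0.957 ± 0.534, then Uqcrq at 0.903 ± 0.529 and the hinge protein gene Uqcrh at 0.848 ± 0.489. In complex II the flavoprotein gene Sdha stood at 1.10 ± 0.560, the iron-sulfur subunit gene Sdhb at 0.691 ± 0.368, and the genes of both membrane anchors, Sdhd and Sdhc, at 0.559 ± 0.270 and 0.501 ± 0.285.

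**Figure D1:**
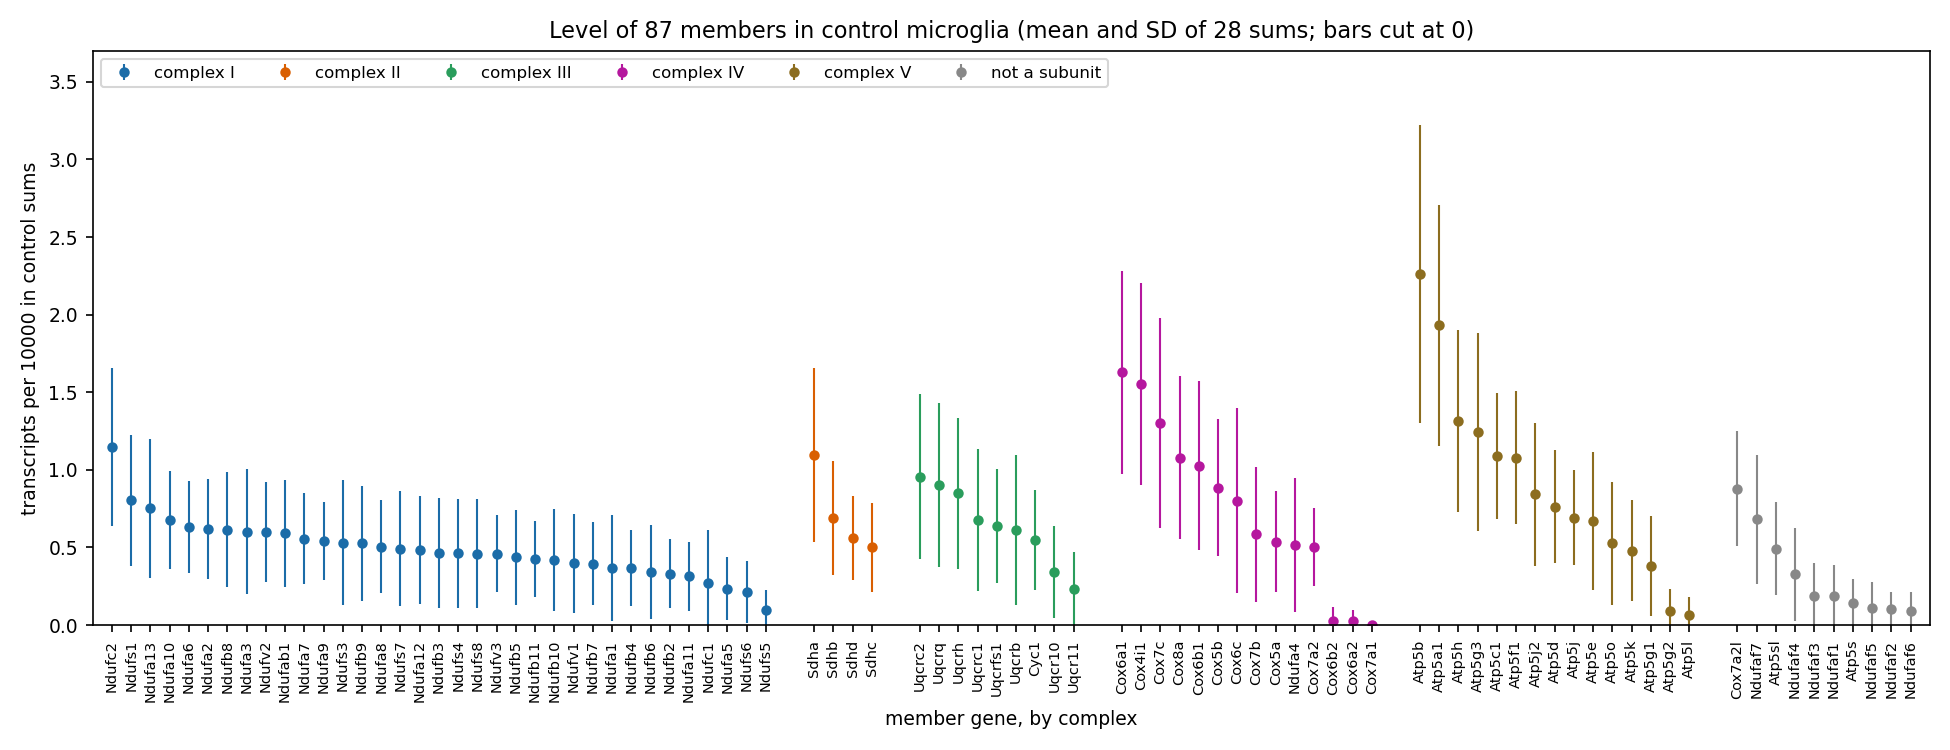
Level of 87 members in control microglia, in transcripts per 10000, ordered within each complex. Points are means and bars SDs over 28 control sums, and Atp5b (2.26) and Atp5a1 (1.93) stand highest while the tissue-restricted genes Cox6a2, Cox6b2 and Cox7a1 lie near 0.

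Genes whose products come as alternative forms were used unequally. The tissue-restricted forms of complex IV subunits known from muscle or testis were nearly absent in control sums. Cox6a2 stood at 0.0281 transcripts per 10000, Cox6b2 at 0.0285 and Cox7a1 at 0.00261, while the widely expressed counterparts Cox6a1, Cox6b1 and Cox7a2 stood at 1.63, 1.03 and 0.502. Cox7a1 was detected in 0.139% of control cells, by a well of few microglial markers on plate 7. Of the 3 genes that encode the same mature c subunit of the ATP synthase rotor, Atp5g3 stood at 1.24 ± 0.636, Atp5g1 at 0.382 ± 0.323 and Atp5g2 at 0.0919 ± 0.140. At their 3′ ends, 45.9% of the windows of Atp5g1 and 47.3% of those of Atp5g2 also occur, in either direction, in transcripts of other genes. For Atp5g3 it was 0%, so the levels of Atp5g1 and Atp5g2 were taken as uncertain. The similar genes Cox7b2, Cox8b and Cox8c were outside the filtered table and had between 0 and 3 transcripts per plate and diet.

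By GENCODE M21 (GRCm38), 84 of the 87 members found by symbol lay on autosomes and 3 on chromosome X (Cox7b, Ndufb11 and Ndufa1), over 19 chromosomes, so the genes do not form a cluster. All 87 are protein-coding. Tags come from 3′ ends. The last 500 bases of each member's transcripts were therefore compared, in windows of 50 bases, with all other annotated transcripts. Windows were matched in both directions, so overlap with a gene on the opposite strand also counted as shared. For 44 members no window was shared. At least 50% was shared for Atp5l (83.4%), Ndufs3 (53.9%), Atp5h (53.1%, with Gm10250 among others) and Uqcrc2 (52.2%, with its neighbour Pdzd9). Shared windows were not split by strand, so how far the counts of these 4 genes are affected was not determined.

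The promoters were examined for what the members share beyond their names. RefSeq promoters (GRCm38.p6, 250 bases before to 50 after the start) were given for 71 of the 88 genes, 76 promoters in all. Their median GC content was 58% against 52.7% over all 32851 promoters, with a median of 19.5 CpG dinucleotides against 7. Letters of 4 motifs known for factors of mitochondrial genes were searched on both strands. NRF1 (GCGCATGCG) was found in 13.2% of member promoters and 1.75% of all promoters, the GABP motif of the ETS family (CCGGAAG) in 22.4% and 8.86%, YY1 (AAGATGGCG) in 9.21% and 1.40%, and the ERR motif (TCAAGGTCA) in 2.63% and 0.423%. Among the 9221 promoters with at least 19 CpG these shares were 4.32%, 19.4%, 3.30% and 0.152%. At least 1 of the 4 was present in 30 of 71 genes, or 42.3%, and in 13.1% of all genes. A match is a string of letters and not a measured binding site.

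The promoter of the highest member with such a match is printed for each complex, in gene direction and with the matched letters in capitals, because it shows how near to the start the matches lie. Ndufa9 (complex I, chr6:126849095-126849394, minus strand) has the YY1 letters 29 bases after the start. Sdhb (complex II, chr4:140961021-140961320, plus strand) has the GABP letters 6 bases after the start, and Uqcrh (complex III, chr4:116075021-116075320, minus strand) and Atp5h (complex V, chr11:115419870-115420169, minus strand) have their reverse complement 10 and 38 bases before it. Cox6a1 (complex IV, chr5:115348909-115349208, minus strand) has the NRF1 letters on both strands, overlapping, 162 and 161 bases before the start, and the reverse complement of the GABP letters 16 bases before it.
Ndufa9: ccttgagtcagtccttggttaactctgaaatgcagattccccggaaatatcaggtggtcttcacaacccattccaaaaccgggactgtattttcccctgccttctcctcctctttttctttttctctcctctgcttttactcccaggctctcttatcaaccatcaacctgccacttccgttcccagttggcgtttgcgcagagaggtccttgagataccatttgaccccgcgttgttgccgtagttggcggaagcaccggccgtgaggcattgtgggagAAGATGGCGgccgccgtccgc
Sdhb: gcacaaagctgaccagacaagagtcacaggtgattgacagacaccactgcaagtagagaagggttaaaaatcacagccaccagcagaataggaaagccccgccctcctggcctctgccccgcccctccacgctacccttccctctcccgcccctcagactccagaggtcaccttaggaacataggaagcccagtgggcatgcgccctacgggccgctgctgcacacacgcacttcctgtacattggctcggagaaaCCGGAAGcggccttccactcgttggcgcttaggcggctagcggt
Uqcrh: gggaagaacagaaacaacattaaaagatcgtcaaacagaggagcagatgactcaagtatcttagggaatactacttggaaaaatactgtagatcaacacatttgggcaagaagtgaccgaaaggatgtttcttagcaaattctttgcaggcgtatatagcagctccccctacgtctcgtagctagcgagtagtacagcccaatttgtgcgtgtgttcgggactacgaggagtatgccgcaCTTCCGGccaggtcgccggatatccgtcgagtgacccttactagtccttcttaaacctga
Cox6a1: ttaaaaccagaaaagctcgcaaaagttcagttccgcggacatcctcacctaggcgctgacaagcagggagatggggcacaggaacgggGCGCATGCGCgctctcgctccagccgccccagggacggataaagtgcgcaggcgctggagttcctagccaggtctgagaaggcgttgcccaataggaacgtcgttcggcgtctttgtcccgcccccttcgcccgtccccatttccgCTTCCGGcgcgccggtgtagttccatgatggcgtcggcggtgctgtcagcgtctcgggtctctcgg
Atp5h: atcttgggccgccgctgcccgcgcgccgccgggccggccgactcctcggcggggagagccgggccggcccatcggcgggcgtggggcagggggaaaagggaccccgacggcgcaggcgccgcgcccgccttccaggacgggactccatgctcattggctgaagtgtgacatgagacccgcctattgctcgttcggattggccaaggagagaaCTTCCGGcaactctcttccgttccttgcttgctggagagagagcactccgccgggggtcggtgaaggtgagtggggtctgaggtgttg
The presence of a match did not go with one direction of level. Genes with the GABP letters had a median control level of 0.559 transcripts per 10000 against 0.504 without them, and genes with the NRF1 letters 0.320 against 0.538.

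From cell to cell the summed share of the 88 members had a median of 0.506%, with 5% of cells below 0.254% and 5% above 0.850%. Deeper wells had narrower spreads, with an SD of 0.227 among 237 wells of 1500 to 2000 transcripts and of 0.156 among 161 wells of over 5000. The medians of these depth classes were 0.489% and 0.508%. Beyond this range stood 3 wells at 3.67%, 4.78% and 6.60%, all of the control replicate M1 on plate 7. Each of these 3 wells held 2 transcripts of the 16 microglial markers, 0.0260% to 0.0667% of its total, and 131, 381 and 89.0 transcripts of Enpp2 in the same order. They were 3 of the 50 wells of that sum and held 49.4% of its member transcripts. Their cells were not assigned to a type.

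**Figure D2:**
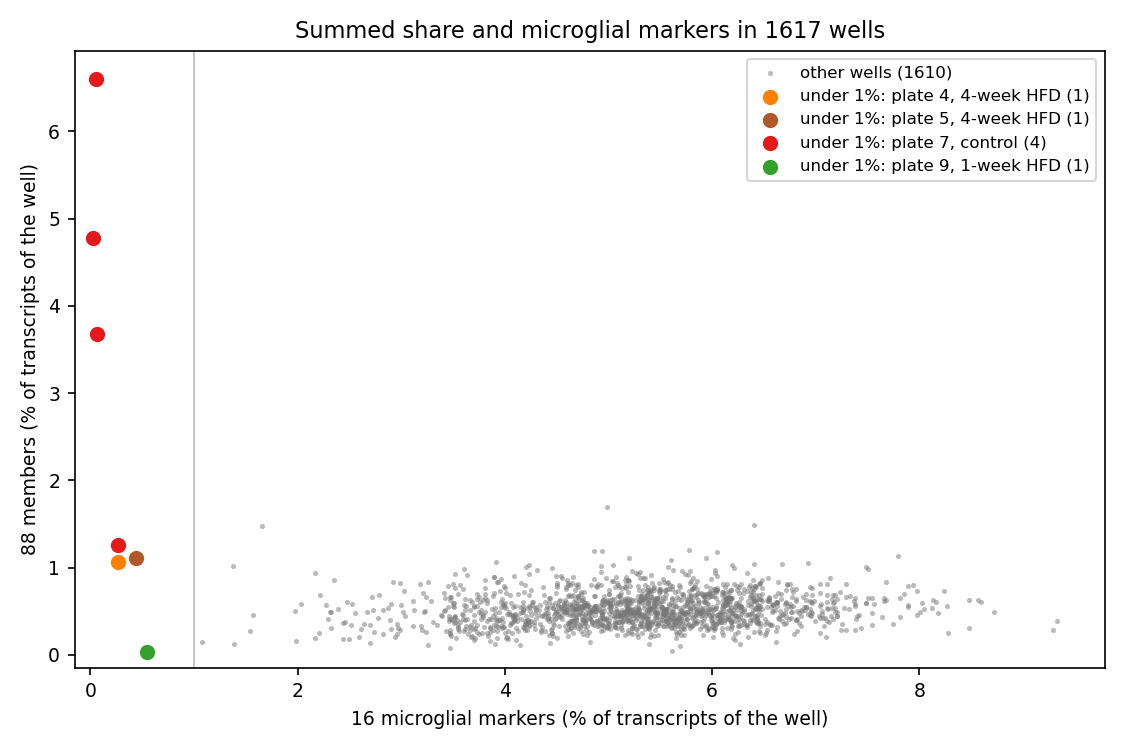
Share of the 88 members against the share of 16 microglial markers, both in % of the transcripts of the well, for 1617 wells. The 7 wells under 1% microglial markers are coloured by plate and diet, and 3 of the 4 on plate 7 lie at 3.67% to 6.60%, above all other wells.

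Between sums the share was narrow once those wells were set aside. Over the 28 control sums it was 0.536% ± 0.111 (SD) with all wells and 0.519% ± 0.0513 without the 7 wells of few markers, and counting alone gives a typical standard error of 0.0306 there. The control M1 sum on plate 7 was at 1.04%, and the lowest control sum at 0.393%. The 6 HFD lengths had means of 0.536% ± 0.0459 (1 day), 0.564% ± 0.0383 (3 days), 0.542% ± 0.0939 (1 week), 0.552% ± 0.0947 (4 weeks), 0.534% ± 0.0724 (9 weeks) and 0.528% ± 0.0477 (16 weeks), all inside the range of control sums. Without the wells of few markers the 4-week mean was 0.517% ± 0.0567 and the 1-week mean 0.544% ± 0.0958, and the other lengths held no such wells. Plates differed too. The same replicate identifiers lie on plates 10, 11 and 12, and their 4 control sums averaged 0.511%, 0.505% and 0.570%, with median depths of 4126, 4676 and 2613 transcripts per cell. HFD sums were therefore set against the control sums of their own plate. These lengths share control sums on plates 4, 10, 11, 12 and 13, and their differences are not independent of each other. No test is given for a summed share.

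**Figure D3:**
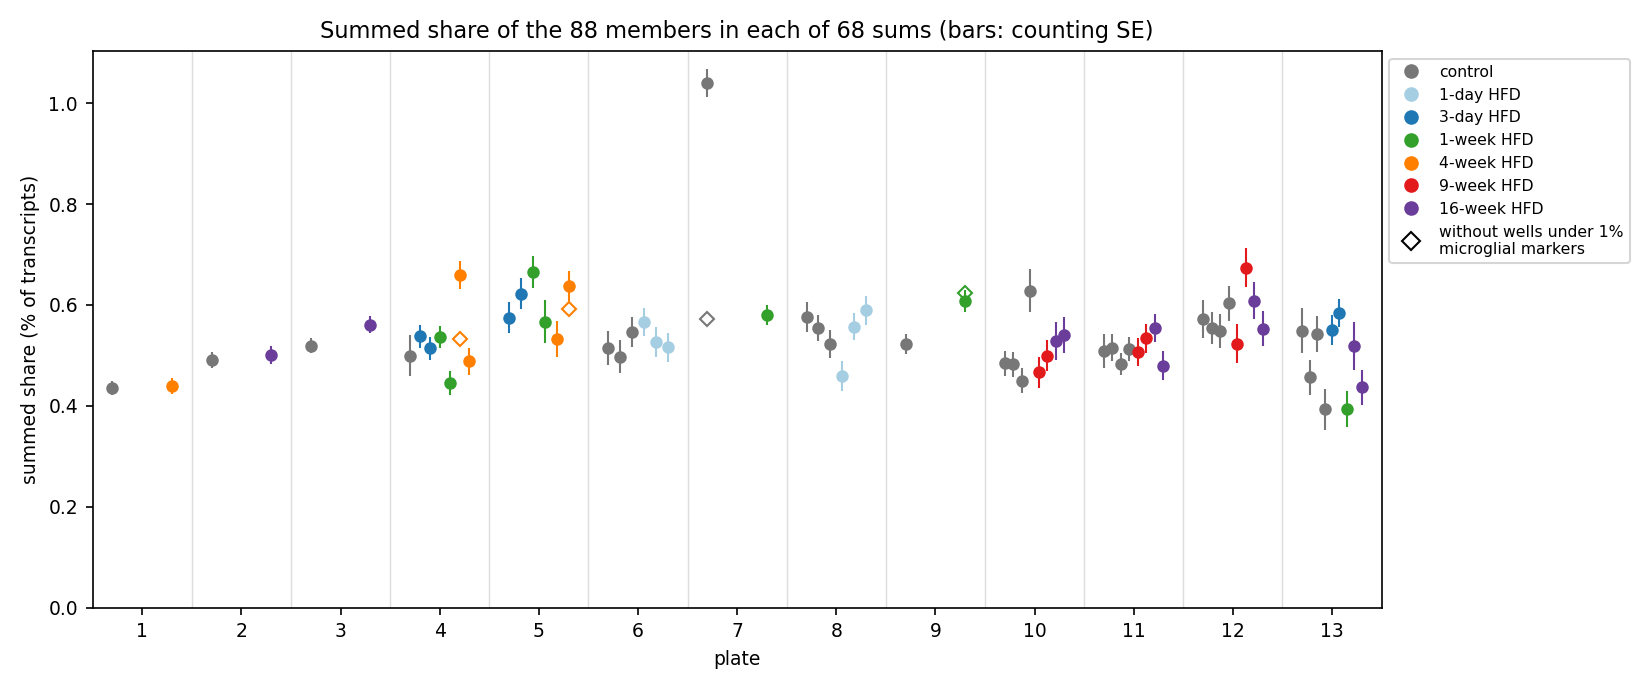
Summed share of the 88 members in % of transcripts, for each of 68 sums, by plate and diet, with bars of 1 standard error from counting alone. Diamonds show sums without wells of few microglial markers. The control sum of plate 7 lies at 1.04% with all wells, and the other sums lie between 0.393% and 0.674%.

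After 3 days of HFD, the length that the study centres on, the summed share was above every control sum of its plate in 4 of 4 sums. On plate 4 the shares were 0.514% (M24) and 0.538% (M25) against 0.499% in the only control sum, which held 7 cells. On plate 13 they were 0.584% (M17) and 0.550% (M18) against 4 control sums from 0.393% to 0.549%. Each of the 4 sums exceeded the highest control sum of its plate by less than the counting standard error of that control sum, by 0.0146 and 0.0389 against 0.0409 on plate 4 and by 0.0355 and 0.00141 against 0.0442 on plate 13. The mean difference was 11.1% ± 7.52 of the control mean (SD, n = 4). Against only the control sums whose well names carry the same number of weeks, 14, it was 19.4% ± 16.7, a comparison added after the data were seen. In the same comparison the differences after 1 day, 1 week, 4 weeks, 9 weeks and 16 weeks were 0.173%, -7.78%, 14.9%, 0.892% and 0.282%. The 1-week value includes the plate 7 pair, 0.580% in M2 against 1.04% in control M1. Without its wells of few microglial markers that control sum was at 0.572%. The 4-week value rests on both sums of plate 4 alone, M20 (32.0%, with its well of few microglial markers) and M21 (-2.19%), because the control sum of plate 1 mixes numbers of weeks and L2 (0.980%) was left out. The 1-week sum M13 on plate 13, at 0.395%, lay between its controls of the same number, M15 at 0.457% and M16 at 0.393%. With all 17727 genes common to the plate tables as the total the 3-day difference was 20.4%. Markers of other myeloid cells stood beside this difference unevenly. The 4 of 7 monocyte markers in the table summed to 3.52 transcripts per 10000 in M24 and 0.379 in M25 against 0.335 in control on plate 4, and to 0.542 (M17) and 0.318 (M18) against 0.234 to 1.24 on plate 13. The 7 markers of border-associated macrophages summed to 4.65 and 0.662 against 0.335 on plate 4, and to 0.813 and 0 against 0.254 to 1.40 on plate 13. Both lists were thus above the only control sum on plate 4 and not above the highest control on plate 13. That plate 4 control sum held 29842 transcripts in 7 cells, so its value of 0.335 rests on very few transcripts. For monocyte markers M25 stood close to it, and only M24 was well above it for both lists. The part of these markers in the summed share was not tested. Plate 5 had no control wells, and its 3-day sums were at 0.623% (M24) and 0.575% (M25). Monocyte markers were at 6.86 and 0.165 transcripts per 10000 there, and those of border-associated macrophages at 1.49 and 0.165.

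Complex I was the complex in which all 4 of the 3-day sums lay above the control mean of the plate, by 18.4% ± 12.7. Its shares were 0.205% and 0.188% on plate 4 against 0.161% in the only control sum. On plate 13 they were 0.212% and 0.167% against a control mean of 0.165%. There M18 differed by 0.911% and lay below the highest control sum (0.189%). Complexes II, III and IV each had 2 sums above and 2 below, and complex V had 3 above and 1 below (9.10% ± 12.9). The members that are not subunits were also above in 4 of 4, by 17.5% to 286%. The largest of these differences rest on the plate 4 control sum, whose share of 0.0101% was the lowest of the 28 control sums. In its 7 cells that sum held 29842 transcripts, of which 149 came from all members together. Its shares of complex I and of the members that are not subunits therefore rest on few transcripts. No counting error is given for the share of a single complex, so whether differences by complex exceed it was not tested.

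Between 1 day and 16 weeks no length had all of its summed shares on one side of the control mean except 3 days. After 1 day the difference was 0.173% ± 9.05 (n = 6), from -16.7% (M12, plate 8) to 8.93% (M10, plate 6), with 4 sums higher and 2 lower. After 9 weeks it was 0.892% ± 10.1 (n = 6, from 2 replicates), with 3 higher and 3 lower. After 16 weeks it was 2.46% ± 6.44 (n = 10), with 7 higher and 3 lower. These 3 means were smaller than the SD between the sums.

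The 1-week and 4-week values depended on the wells of few microglial markers. After 1 week the difference was -10.1% ± 23.6 (n = 5), of which the plate 7 pair gave -44.2%, 0.580% in M2 against 1.04% in control M1. Without those wells the mean was -0.396% ± 14.9, with 3 sums higher and 2 lower. A lower sum, M13 on plate 13 (-18.7%), had monocyte markers at 3.24 transcripts per 10000 against 0.234 to 1.24 in its controls. Its markers of border-associated macrophages were at 2.26 against 0.254 to 1.40. The other lower sum, M22 on plate 4, had 0.505 and 0.379 for these lists against 0.335 and 0.335. The higher sums had 0.526 and 0.702 (M23, plate 4) against the same control, 0.205 and 1.02 (M2, plate 7) against 0.219 and 0.365, and 0.569 and 0.812 (M4, plate 9) against 0.0737 and 0.885. After 4 weeks the difference was 10.3% ± 18.9 (n = 3), with 32.0% in M20 on plate 4, where 1 well of 19948 transcripts had 0.271% microglial markers and a member share of 1.06%. Without that well M20 was 6.72% above its control and the mean difference was 1.83% ± 4.52. In the other 4-week well of this kind, on plate 5, the neutrophil gene S100a9 had 974 transcripts. S100a9 was the only 1 of 6 neutrophil markers in the table, was listed at 0 in the control sums and reached 129 transcripts per 10000 in that 4-week sum. Plate 5 enters no difference from control, but M21 on plate 4, which does, had S100a9 at 8.29 against 0 in its control. On plate 4 the monocyte markers were at 1.57 (M20) and 1.18 (M21) against 0.335, and those of border-associated macrophages at 1.69 and 1.47 against 0.335. The control value of 0.335 is that of a sum of 7 cells and rests on very few transcripts. The part of these markers in the 1-week and 4-week differences was not tested.

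By complex, all 6 sums of complex IV after 9 weeks lay below the control mean of their plate, by -17.7% ± 14.2. This case was picked by its signs after the values of all complexes and lengths were seen. On plate 10 the shares were 0.0596% (M7) and 0.0901% (M8) against 0.101% in control, on plate 11 0.0919% and 0.0825% against 0.0922%, and on plate 12 0.101% and 0.0921% against 0.124%. Only 3 of the 6 lay below every control sum of the plate, and the sums come from 2 replicate identifiers on 3 plates each. After 1 week complex IV was below in 5 of 5 sums with all wells (-19.8% ± 19.2) and in 4 of 5 without the wells of few markers (-9.06% ± 10.6). After 16 weeks it was 5 higher and 5 lower. Complex I after 16 weeks was higher in 8 of 10 sums (8.94% ± 12.0), 3 of which lay above all control sums of the plate. Complex V after 9 weeks was higher in 5 of 6 (9.81% ± 22.4), and complex II after 16 weeks in 8 of 10 (19.7% ± 38.8), in both cases with an SD larger than the mean.

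**Figure D4:**
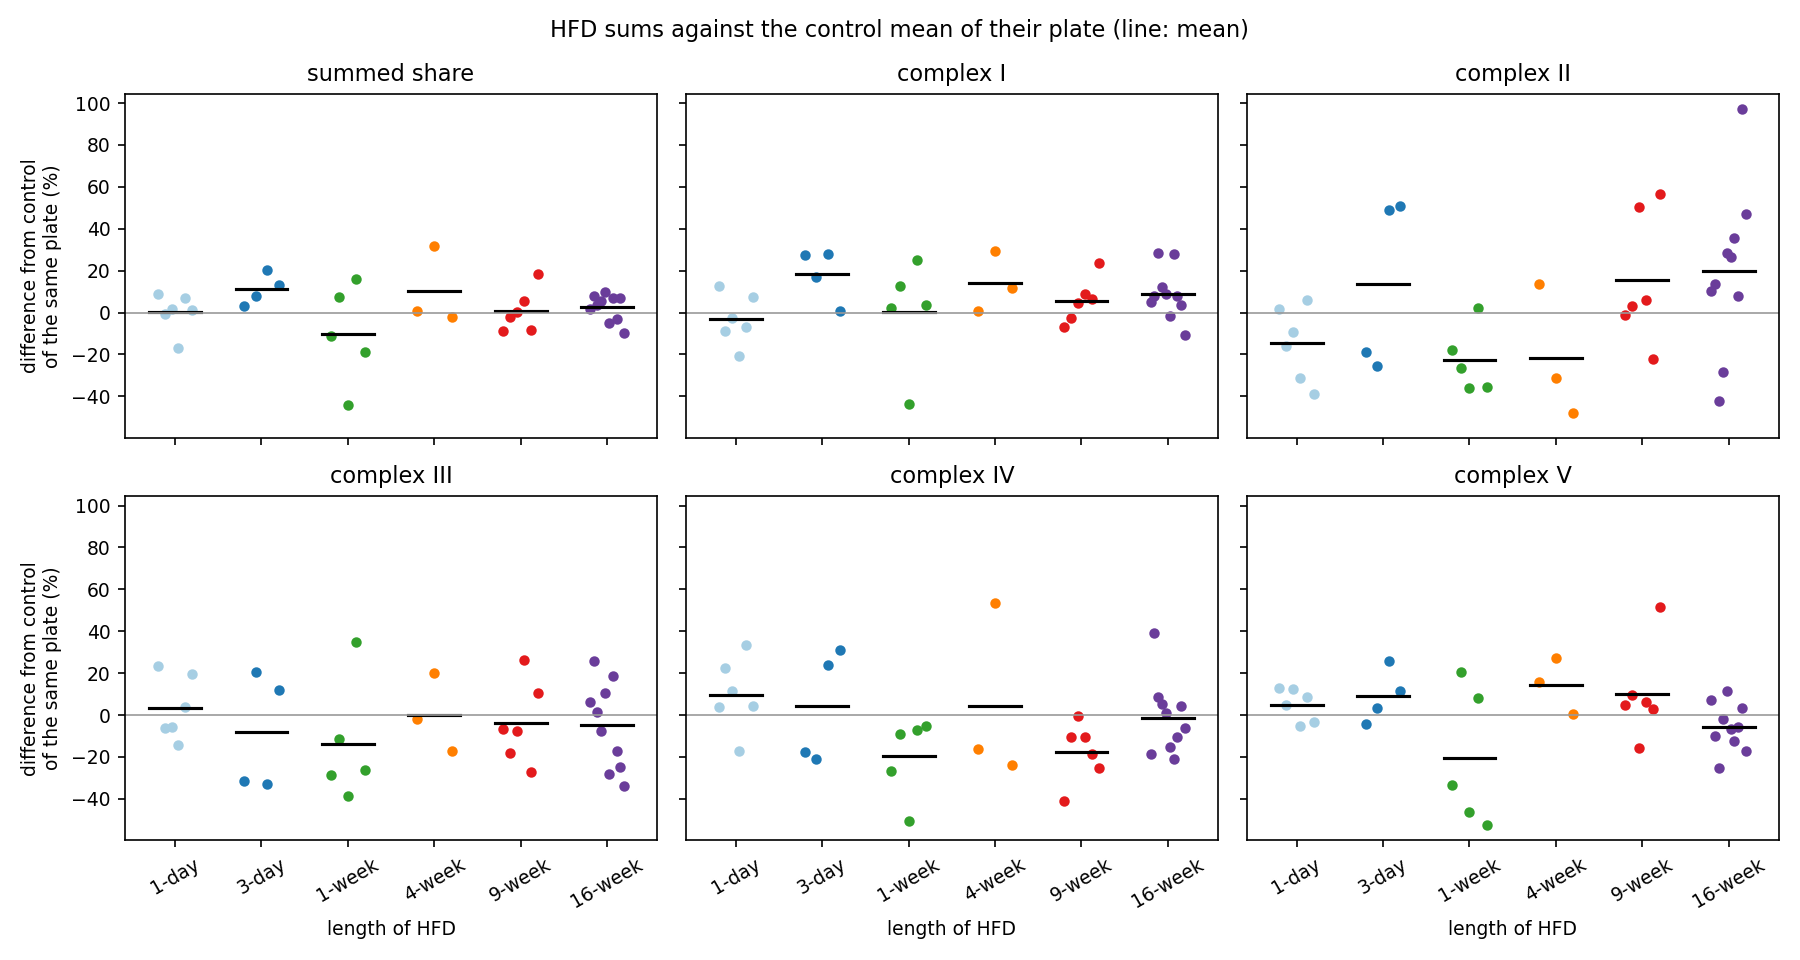
Difference of each HFD sum from the control mean of its plate, in % of that mean, for the summed share and for complexes I to V, with all wells. Points are sums and lines their mean; the 4 summed shares of 3-day HFD and the 4 of complex I lie above 0, and the 6 complex IV shares of 9-week HFD lie below 0.

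Gene by gene, sums were tested with edgeR's quasi-likelihood test with plate as a block, over all genes that passed a filter on low counts, and a gene was called at a Benjamini-Hochberg adjusted p under 0.05. Only 14 members passed this filter at any length and 4 at every length (Atp5a1, Atp5b, Cox4i1 and Cox6a1), which gave 60 tests of members. No member was called at any length. At an unadjusted p under 0.05, 2 of the 60 tests passed by edgeR and 2 by DESeq2, which called 0 genes of any kind. Among all genes tested the called share was 0% after 1 day (0 of 1710 genes), 0% after 3 days (0 of 1719), 0.121% after 1 week (2 of 1652), 0% after 4 weeks (0 of 1862), 0.0661% after 9 weeks (1 of 1514) and 0% after 16 weeks (0 of 1233). At an unadjusted p under 0.05 the shares of all genes tested were 5.61%, 6.75%, 5.21%, 3.33%, 7.27% and 6.81% in the same order. The median standard error of a member's log2 fold change was 0.20 at 16 weeks and between 0.30 and 0.53 at the other lengths.

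Both tests of members under 0.05 fell at 1 week, where 12 of 12 members tested had negative fold changes. Their median was -0.57, beside -0.003 for all genes. Without the wells of few markers 8 of 10 were negative with a median of -0.22, and without the plate block 5 of 12 were negative with a median of 0.07. Atp5h was at 1.26 and 1.05 transcripts per 10000 (M22 and M23, plate 4), 1.57 (M2, plate 7), 1.22 (M4, plate 9) and 0.647 (M13, plate 13). The controls of these plates were at 1.01, 3.29 and 1.99 on plates 4, 7 and 9, and at 0.414 to 1.78 on plate 13. The 1-week sums lay below their control on plates 7 and 9 and above it on plate 4. The log2 fold change was -0.81 (SE 0.34, edgeR p = 0.0178, adjusted p = 0.87), and without the wells of few markers it was -0.41 (edgeR p = 0.243). Atp5b was at 1.39, 2.11, 2.45, 1.79 and 0.970 in the same sums against 1.34, 5.11, 1.99 and, on plate 13, 1.24 to 3.92, with a log2 fold change of -0.68 (SE 0.29, edgeR p = 0.0215, adjusted p = 0.87). The plate 7 control sum, which held the 3 wells of high share, was the highest control sum for both genes, and without the wells of few markers 0 of the 10 members tested at 1 week had an unadjusted edgeR p under 0.05. The count moved both ways with the sums used, and 0 members were called in each fit. It was 0 of 10 without control M1 of plate 7, where 86 of 1630 genes of any kind were under 0.05. Without M4 of plate 9 it was 6 of 14 (all genes 89 of 1749) and without control M3 of plate 9 it was 5 of 12 (82 of 1633). With wells of at least 1000 transcripts it was 5 of 11 (91 of 1676) and with sums of at least 10 cells 4 of 12 (105 of 1765).

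At 3 days the smallest p among members was that of Atp5f1, a stalk subunit of ATP synthase. It was at 0.619 and 1.14 transcripts per 10000 on plate 4 against 0.335 in control, and at 1.9 and 1.91 on plate 13 against 0.713, 0.761, 1.17 and 2.07. The 3-day sums lay above the control mean on both plates and overlapped the control sums on plate 13. The log2 fold change was 0.78 (SE 0.45, edgeR p = 0.0846, adjusted p = 0.776). The log2 fold change of Atp5b was -0.49 (SE 0.38) and that of Sdha 0.38 (SE 0.51).

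At 9 weeks the smallest p was that of Cox4i1, the widely expressed form of complex IV subunit 4. The 9-week sums were at 0.852 and 0.588 transcripts per 10000 on plate 10, 0.613 and 1.05 on plate 11, and 1.96 and 1.80 on plate 12, against 1.05 to 2.07, 0.571 to 2.23 and 1.21 to 2.41 in the control sums. On plate 10 both sums lay below all 4 control sums, and on plates 11 and 12 they overlapped. The log2 fold change was -0.52 (SE 0.30, edgeR p = 0.0876, adjusted p = 0.671). Cox6a1 was at -0.44 (SE 0.32), Cox7c at -0.04 (SE 0.30), Atp5a1 at 0.07 (SE 0.26) and Atp5b at 0.12 (SE 0.24).

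At the other lengths the smallest p of a member was larger or its direction depended on the model. At 16 weeks Atp5a1 ranged from 1.6 to 3.25 transcripts per 10000 in 10 HFD sums and from 0.828 to 3.56 in the 18 control sums of the same plates, and was above the control mean of the plate in 8 of 10. Its log2 fold change was 0.31 (SE 0.18, edgeR p = 0.0908, adjusted p = 0.777). At 4 weeks Atp5b was at 2.57 on plate 1 against 1.65 and at 1.93 and 2.80 on plate 4 against 1.34, above control in 3 of 3 (log2 fold change 0.69, SE 0.41, edgeR p = 0.0991, adjusted p = 0.999), but at -0.046 in a model of all lengths together. At 1 day Cox6b1 had the smallest p (log2 fold change 0.45, SE 0.44, edgeR p = 0.309, adjusted p = 0.955).

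To describe all 88 members, the same model was fitted to every gene without the filter, where most members rest on a few transcripts per sum. It called 0 members by edgeR at each length, where the called share of all genes was 0%, 0.0349%, 0.0407%, 0.0523%, 0.0175% and 0.0232% in order of length. Among members, 21 of 528 tests had an unadjusted p under 0.05: 3, 6, 4, 2, 2 and 4 of 88 in order of length. Among all genes the same share was 3.41%, 4.54%, 3.11%, 1.94%, 4.98% and 5.09%. At 3 days 68 of 88 members had positive fold changes with a median of 0.32, beside 61.6% of all genes with a median of 0.17. The scaling of this fit thus placed the median of all genes itself 0.17 above 0, and the members are to be read against that. The 3-day direction also depended on the model, since 9 of the 13 members that passed the filter were positive in the model of that length with plate as block, 7 of 13 without the block and 7 of 18 in a model of all lengths together. At 1 week 27 of 88 were positive with a median of -0.30, beside 50.5% of all genes with a median of 0.00, and without the wells of few markers 50 of 87 were positive with a median of 0.07. At 1 day, 4 weeks, 9 weeks and 16 weeks 49, 56, 46 and 50 members were positive, with medians of 0.05, 0.13, 0.01 and 0.03, beside 48.6%, 59.1%, 45.6% and 50.4% of all genes with medians of 0.00, 0.07, -0.03 and 0.00. Without the wells of few markers the 4-week count was 46 of 88 with a median of 0.04, beside 57.2% of all genes with a median of 0.07.

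**Figure D5:**
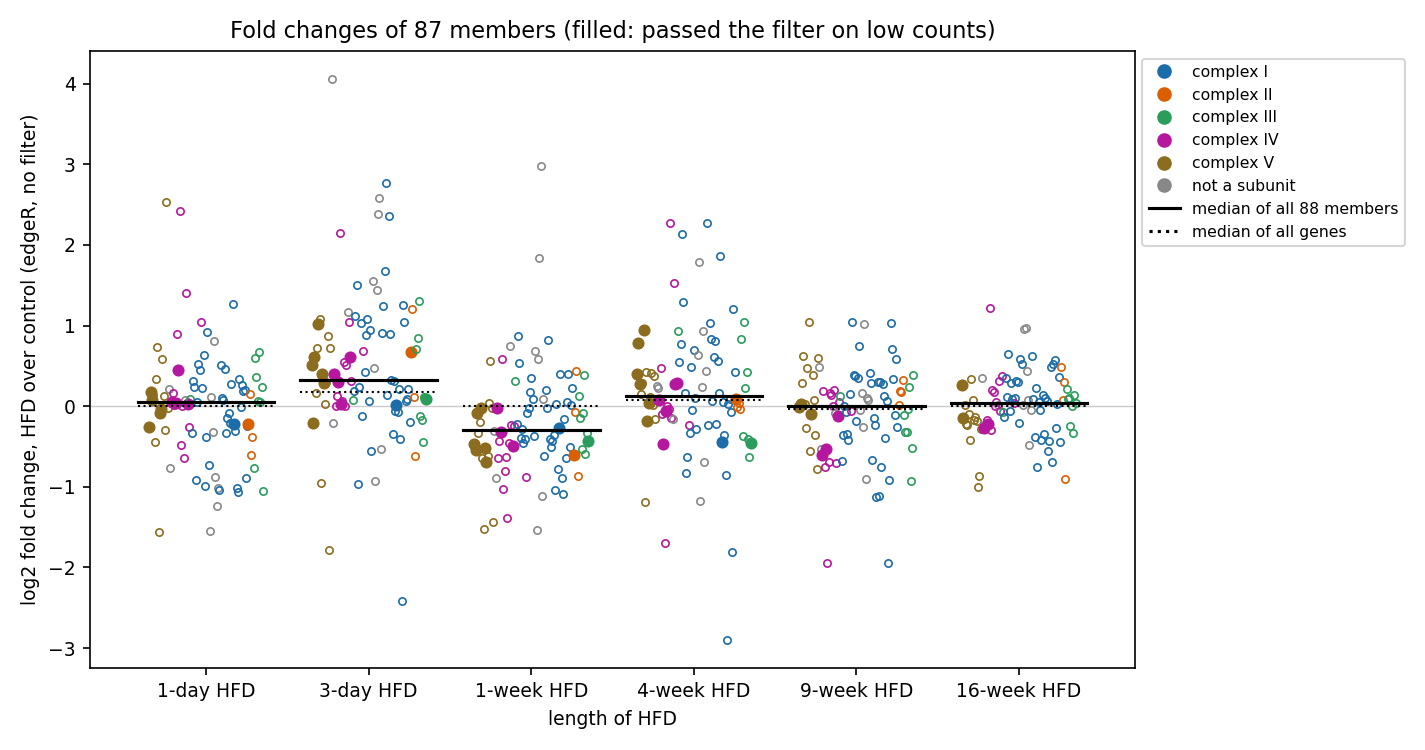
Log2 fold change (HFD over control, edgeR without the filter on low counts) of 87 members at each HFD length, coloured by complex. Filled points passed the filter, solid lines are the medians of all 88 members (0.32 at 3 days and -0.30 at 1 week) and dotted lines those of all genes.

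Single members in this wider fit had larger fold changes on fewer transcripts. Cox7b, a complex IV subunit gene, was at 1.14, 0.840 and 1.02 transcripts per 10000 after 1 day on plate 6 and at 0.389, 1.10 and 0.890 on plate 8, against 0.223, 0.438 and 0.469 and against 0.460, 0.123 and 0.306 in control. All 6 sums lay above the control mean of their plate and 5 above every control sum there (log2 fold change 1.40, SE 0.51, edgeR p = 0.00605, adjusted p = 0.825). At 4 weeks Cox7b had a log2 fold change of 1.52 (edgeR p = 0.0409), and of 1.36 without the wells of few markers (edgeR p = 0.0844).

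Uqcrq, a small complex III subunit gene, was at 0.427, 0.840 and 1.02 transcripts per 10000 after 1 day on plate 6 and at 0.779, 0.276 and 0.254 on plate 8, against 1.56, 0.876 and 1.56 and against 0.920, 1.35 and 0.613 in control. All 6 sums lay below the control mean of their plate (log2 fold change -1.05, SE 0.43, edgeR p = 0.0144, adjusted p = 0.825). Neither Uqcrq nor Cox7b passed the threshold.

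Within complex II, 2 of the 4 genes had fold changes of opposite sign and an unadjusted p under 0.05 after 16 weeks. Sdhd ranged from 0 to 0.804 transcripts per 10000 over 10 sums, with a median of 0.363, and from 0 to 1.27 in all 28 control sums, with a median of 0.588. It was below the control mean of the plate in 9 of 10 sums, and its log2 fold change was -0.90 (SE 0.38, edgeR p = 0.018, adjusted p = 0.957). Sdha ranged from 0.804 to 2.60 in the same 10 sums and was above the control mean in 6, with a log2 fold change of 0.48 (SE 0.24, edgeR p = 0.0441, adjusted p = 0.957). At 1 week Cox6b1 was at -1.02 on the log2 scale (edgeR p = 0.0131), and at -0.79 without the wells of few markers (edgeR p = 0.0619).

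At 3 days the members under 0.05 in this fit were Atp5f1, Atp5s, Cox7a2l, Ndufb2, Ndufb3 and Ndufb5, all with positive fold changes and with adjusted p of 0.707 or more by edgeR. Ndufb2, Ndufb3 and Ndufb5, subunits of the membrane arm of complex I, had log2 fold changes of 1.68 (SE 0.83), 2.76 (SE 1.15) and 2.35 (SE 0.82). Their standard errors were larger than the typical one of 0.73 in that fit, and these 3 genes were picked here after their values were seen.

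The mitochondrial genome encodes the other part of the chain. Its chain genes in the table (7 of 13, among them mt-Nd5, mt-Cytb and mt-Co1) held 1.25% to 1.93% of transcripts in the control sums averaged per HFD length. Against control they differed by 10.7% ± 16.1 after 1 day, 1.09% ± 12.5 after 3 days, 5.38% ± 28.5 after 1 week, 12.1% ± 11.3 after 4 weeks, -10.8% ± 17.3 after 9 weeks and 0.361% ± 17.6 after 16 weeks. Without the wells of few markers the 1-week difference was 11.4% ± 18.5 and the 4-week difference 6.52% ± 8.34. By edgeR with the filter on low counts 0 were called at any length, and 2 of 6 had an unadjusted p under 0.05 after 9 weeks, beside 7.27% of all genes tested, and 0 at the other lengths. The smallest p was that of mt-Nd5, a complex I subunit gene, after 9 weeks (log2 fold change -0.33, edgeR p = 0.0043, adjusted p = 0.336), where all 6 tested genes had negative fold changes. Without the filter 0 were called. After 9 weeks 2 of 7 had an unadjusted p under 0.05, beside 4.98% of all genes, with mt-Nd5 at -0.42 (edgeR p = 0.000246, adjusted p = 0.369). After 3 days mt-Nd4, another complex I subunit gene, was under 0.05 (log2 fold change 0.37, edgeR p = 0.0189, adjusted p = 0.913), beside 4.54% of all genes. The signs at 3 days depended on the fit, with 1 of 6 genes positive with the filter and 6 of 7 without it. Their median log2 fold change was -0.12 with the filter, beside -0.003 for all genes, and 0.11 without it, beside 0.17. It thus lay below the median of all genes in both fits. Over 68 sums, centred by plate and without the wells of few markers, the nuclear share and the mitochondrially encoded share had a Pearson's r of 0.07 and a Spearman's rho of -0.02, and with all wells an r of 0.32. Both are shares of the same totals, and the sums share libraries.

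Other genes of the pathway were followed in the fit without the filter. Of 37 genes in the table that were listed as assembly factors, such as Oxa1l and Sco2, 0 were called at any length. In order of length 1, 4, 0, 0, 1 and 2 had an unadjusted edgeR p under 0.05, beside 3.41%, 4.54%, 3.11%, 1.94%, 4.98% and 5.09% of all genes. At 3 days 27 of the 37 had positive fold changes with a median of 0.44, beside 61.6% of all genes with a median of 0.17. The smallest p of the list at that length had the opposite sign, with Sco2, a copper chaperone of complex IV, at -4.05 (SE 1.43, edgeR p = 0.00473, adjusted p = 0.745). Of 12 genes of cytochrome c and coenzyme Q synthesis, 0 were called and at most 1 was under 0.05 at a length. Of 15 regulators of mitochondrial genes, among them Nrf1, Gabpa, Esrra and Tfam, 0 were called and at most 2 were under 0.05, with Tfam, which packages mitochondrial DNA, at a log2 fold change of 2.51 after 3 days (edgeR p = 0.039, adjusted p = 0.913). Gabpb1, which encodes a partner subunit of Gabpa, was at 1.61 after 1 week (edgeR p = 0.0316) and at -1.98 after 4 weeks (edgeR p = 0.031), with an adjusted p of 1 at both.

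The complexes were only loosely tied to each other across sums. Over 68 sums, centred by plate and without the wells of few markers, Pearson's r between complexes ranged from -0.15 (complexes II and IV) to 0.32 (complexes I and III), as a description of sums that share plates and counting error. Among 17192 other genes, Higd1a had the highest Spearman's rho with the summed share (0.59), over 68 sums centred by plate and with all wells. Nxf1 (0.52), Rpl7 (0.51), Syne2 (0.50) and Got2 (0.48) followed. These are the largest of 17192 correlations and have no test, and Higd1a averaged only 0.212 transcripts per 10000.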

How the data were processed

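Single microglia were sorted into 13 plates of 192 wells and sequenced by CEL-Seq2. Per the labels and the study's methods, the authors checked reads with FastQC, trimmed them with Cutadapt, mapped them to GRCm38 (mm10) with STAR, counted them with featureCounts on GENCODE M21 genes and analysed them with RaceID3. The deposited plate files hold 1 estimated count per gene and per well, which is the number of different molecular identifiers corrected for chance repeats, without normalization. A second deposited table gave the 17280 filtered genes, and a table of wells gave plate, diet, length of HFD and replicate identifier. The 447 genes removed by the authors held 22.3% of transcripts.

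The members, gene lists and tests were chosen with earlier results of these data known. Estimated counts of wells with at least 1500 transcripts were summed by replicate identifier, diet and plate (at least 5 cells, which left out 1 sum), rounded, and fitted per HFD length with all control sums by edgeR 4.0.16 in R 4.3.3 (TMM, filterByExpr by diet, plate as block, quasi-likelihood test, Benjamini-Hochberg). DESeq2 1.42.0 was the other tool. The fits were tested on simulated data. A replicate identifier need not be a mouse, and some lie on several plates and enter more than once, so p-values measure the spread between these sums, which may be technical, and may be too small. No doublet caller was run, since wells held single sorted cells. Named genes were the 3 highest members of complexes I, III, IV and V, all of complex II, the member with the smallest p at each length, and the isoform and c-subunit genes. Others were picked after their values were seen. The values of 1 member are not reported here, though sums, counts and medians over the members include it. Summed shares were described without a test. Promoters came from RefSeq, and numpy 2.4.6, pandas 2.3.3, scipy 1.17.1 and matplotlib 3.10.9 in python 3.11.15 were used.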

Additional observations from a re-analysis of the deposited data

Results flagged for a closer look

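Within groups of 4 to 10 sums, the highest or lowest sum was compared with its nearest neighbour by Dixon's ratio at the 95% level. It was far from the others in 4 of 60 groups of summed or complex shares (6.67%) and in 7 of 99 groups of a named member (7.07%), where chance gives about 1 in 20. The searches are not independent, since a high sum raises the share of several complexes.

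The 9-week HFD sum of M8 on plate 12 had a summed share of 0.674%, with the next of the 6 sums at 0.534%, and a complex V share of 0.202%, with the next at 0.141%. Atp5b stood at 4.27 transcripts per 10000 in that sum (19.0 transcripts), with the next at 2.55. On the same plate the 9-week sum of M7 had Atp5a1 at 3.92, with the next at 2.13, and on plate 10 the 9-week sum of M8 had Cox8a at 2.74, with the next at 1.23. Plate 12 also had the highest control mean of the summed share among plates 10, 11 and 12.

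Among control sums, M12 on plate 13 had a complex III share of 0.0748%, with the next of 4 at 0.0468%, and M4 on plate 10 had a complex V share of 0.0928%, below the next at 0.124%. At 4 weeks Ndufa4 stood at 1.08 transcripts per 10000 in M20 on plate 4 (9.0 transcripts), the sum with a deep well of few microglial markers. At 1 week Uqcrc2 stood at 2.87 in M23 and Uqcrq at 1.64 in M22, both on plate 5, which has no control wells. At 16 weeks Uqcrc2 stood at 2.38 in M5 on plate 12. Of the 3′ end windows of Uqcrc2, 52.2% also occur in its neighbour Pdzd9, in either direction. Whether its counts include transcripts of Pdzd9 was not tested.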

How the results depend on the processing

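The count of called members was 0 in all 124 alternatives run (tool, scaling, filters on genes and cells, plate block, sums over linked plates, 1 model of all lengths, and leaving out each replicate). Few genes of any kind were called in them, at most 14 of 1719 (3 days without the plate block). Of 118 alternative fold changes of the named members, 115 kept their direction and did not reach the threshold. The 3 that reversed were Atp5b at 4 weeks (-0.046 in 1 model of all lengths), Atp5h at 1 week (0.12 without the plate block) and Cox6b1 at 1 day (-0.27 without the plate block). Over these alternatives the edgeR adjusted p ranged from 0.439 to 0.989 for Atp5f1 at 3 days, from 0.653 to 1 for Atp5h at 1 week and from 0.607 to 0.998 for Cox4i1 at 9 weeks. Of the alternatives for the summed share, 122 moved it by less than 1 SD, and the 3-day value of 11.1% moved to 20.4% with all common genes as the total and to 19.4% with control sums of the same weeks in the well names, the latter chosen after the data were seen, as was leaving out wells of few microglial markers. With 1 replicate left out at a time it ranged from 7.66% to 16.9% at 3 days, the latter without the plate 4 control of 7 cells, from -16.7% to -1.55% at 1 week (the latter without M1 or M2 of plate 7), from -0.606% to 16.5% at 4 weeks (the former without M20), from -5.48% (without M8) to 7.27% (without M7) at 9 weeks, from 0.652% to 4.71% at 16 weeks and from -1.58% to 3.54% at 1 day. The cause of these shifts was not tested beyond the wells named in the text. No paired analysis was possible because replicate identifiers do not pair control with HFD sums, and plate was the block instead.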
